A study of Homo sapiens with 12 samples.

Results

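The 9 genes described here, HLA-B, HLA-C, HLA-E, HLA-F, B2M, TAP1, TAP2, NLRC5 and PSMB8, carry out or control antigen presentation by MHC class I. They were taken by gene symbol from a table of 20114 symbols. All 9 had enough reads to test and belonged to the 13872 genes tested. The samples were T47D cells, an established line of human breast carcinoma, which had been starved of serum in hormone-stripped medium before treatment. They then received vehicle or one of 2 doses, 100 pM or 10 nM, of a hormone that acts through the progesterone receptor, and RNA was taken at 6 h or 18 h. The compound is called only a progestin in the sources used here. The 6 groups were vehicle, 100 pM and 10 nM at 6 h, and vehicle, 100 pM and 10 nM at 18 h, with 2 libraries each, numbered replicate 1 and replicate 3. The labels name no other cell type and no interferon treatment. Whether the 2 libraries of a group are separate cultures is not stated, so every p-value reflects only the spread between these samples.

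MHC class I molecules show short peptides from a cell's own proteins to cytotoxic T cells, and natural killer cells read their presence or absence. Proteasomes cut the proteins, the TAP transporter carries the peptides into the endoplasmic reticulum, and there a heavy chain folds with beta-2 microglobulin around a peptide and travels to the surface. PSMB8 is an interferon-inducible catalytic subunit of the proteasome. TAP1 and TAP2 form the transporter, HLA-B and HLA-C are classical heavy chains, HLA-E and HLA-F are less variable non-classical heavy chains, and B2M is the light chain. NLRC5 is a transactivator of MHC class I genes. Tumour cells often lower the pathway, and breast cancer lines keep different amounts of it.

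Total counts ran from 34204970 to 41373890 per library. A level is given in CPM, counts scaled to the size of the library, differences between groups are log2 fold changes ± SE from edgeR, and a gene was called at an adjusted p under 0.05. The luminal markers KRT8, KRT19 and GATA3 were present in every library (lowest 913, 1752 and 392 CPM), while TFF1 did not pass 0.612 CPM. At 10 nM against vehicle 7 of 11 luminal markers fell and 0 rose at each time, with medians of -1.002 at 6 h and -1.06 at 18 h. The falls are 63.6% of the list, beside 19.4% and 15.2% of all genes called as lower. Medians over all genes were -0.02 and -0.00. GATA3 fell by 1.64 ± 0.10 and 1.56 ± 0.10 (adjusted p = 7.73e-06 and 1.35e-05), and FOXA1 by 2.66 ± 0.20 and 1.94 ± 0.19 (adjusted p = 1.87e-05 and 0.000107). These markers moved at the dose at which most results below were called, and their part in those results was not tested. Among 12 immune markers CD2 and NKG7 had no read, PTPRC reached 0.127 CPM, CD14 reached 0.0768 CPM, and the whole list summed to between 2.99 and 6.31 CPM over the libraries, of which CD68 made up at most 3.92 CPM. Of 5 basal markers tested, 1 rose and 1 fell at 10 nM and 6 h (40%), and 1 rose at 18 h (20%). Of 5 fibroblast markers tested 20% were called at each time, beside 42.0% and 34.1% of all genes. VWF, the 1 endothelial marker tested, rose at both times but did not pass 0.927 CPM. KRT5, a basal keratin, had means of 0.0128 CPM in vehicle and 1.76 CPM at 10 nM at 6 h. COL1A1 read at least 66.1 CPM in every library. The share of counts on mitochondrial genes ran from 6.69% to 10.8%, with replicate 3 above replicate 1 at each dose and time. Same-numbered libraries deviated alike across genes, so a result whose call changed when replicate number entered the fit is also given with that term, written as with the block.

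The upstream sequences of the genes whose results are compared most closely below show how similar or different their control regions are. Each is the 250 bases before the annotated start, from RefSeq on GRCh38.p14, written 5′ to 3′ on the gene's own strand. Capitals mark matches, on either strand, to any of 7 motifs. These were the core of the interferon response element, an NF-kB like site, TGACG (X2 or cAMP response element, partial site), CCAAT (read as ATTGG on the other strand), the gamma-activated site, the progesterone response element and AGAACA (its partial site). The windows lie at chr6:31357180-31357429 (minus strand, HLA-B), chr6:31272093-31272342 (minus, HLA-C), chr15:44711267-44711516 (plus, B2M), chr6:32853705-32853954 (minus, TAP1) and chr6:32844680-32844929 (minus, PSMB8).
HLA-B: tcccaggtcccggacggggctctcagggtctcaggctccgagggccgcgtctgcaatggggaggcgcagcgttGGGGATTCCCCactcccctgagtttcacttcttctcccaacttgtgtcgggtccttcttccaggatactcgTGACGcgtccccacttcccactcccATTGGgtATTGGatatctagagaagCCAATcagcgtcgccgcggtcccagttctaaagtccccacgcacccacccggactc
HLA-C: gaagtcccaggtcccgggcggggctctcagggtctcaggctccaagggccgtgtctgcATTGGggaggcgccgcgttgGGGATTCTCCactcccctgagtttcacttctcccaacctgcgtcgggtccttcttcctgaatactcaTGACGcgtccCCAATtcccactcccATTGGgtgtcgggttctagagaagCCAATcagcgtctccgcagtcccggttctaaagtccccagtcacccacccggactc
B2M: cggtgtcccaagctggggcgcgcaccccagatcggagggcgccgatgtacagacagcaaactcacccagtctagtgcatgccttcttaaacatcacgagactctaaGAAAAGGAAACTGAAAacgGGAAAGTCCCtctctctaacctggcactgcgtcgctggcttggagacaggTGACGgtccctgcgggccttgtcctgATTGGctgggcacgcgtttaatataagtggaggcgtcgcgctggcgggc
TAP1: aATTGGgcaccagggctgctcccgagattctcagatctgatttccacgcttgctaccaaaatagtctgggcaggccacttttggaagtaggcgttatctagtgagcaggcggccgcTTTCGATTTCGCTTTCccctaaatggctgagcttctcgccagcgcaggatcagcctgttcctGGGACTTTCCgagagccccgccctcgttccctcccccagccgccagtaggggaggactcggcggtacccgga
PSMB8: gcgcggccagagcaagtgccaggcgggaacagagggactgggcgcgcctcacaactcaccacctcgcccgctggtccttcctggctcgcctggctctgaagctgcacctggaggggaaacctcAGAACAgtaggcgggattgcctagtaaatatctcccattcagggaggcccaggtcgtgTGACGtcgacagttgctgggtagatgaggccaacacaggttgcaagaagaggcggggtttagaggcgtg

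The HLA-B and HLA-C windows were 89% identical over their alignment. In HLA-B the NF-kB like match began 177 bases before the start, TGACG lay at 106 and CCAAT or its reverse at 81, 74 and 56. In HLA-C the NF-kB like match began at 172, TGACG lay at 105 and CCAAT or its reverse at 192, 95, 80 and 56. TAP1 held overlapping interferon cores at 134 and 128, an NF-kB like match at 72 and CCAAT at 249. B2M held overlapping interferon cores at 144 and 138, an NF-kB like match at 125, TGACG at 75 and CCAAT at 49. PSMB8 held TGACG at 69 and AGAACA at 127, and no match to the interferon core in this window. A further window of PSMB8, not printed here, held the gamma-activated site at 65, and a further window of TAP1 held it at 189. Over 35116 promoter windows of the same length the interferon core was in 3.02%, the NF-kB like motif in 4.46%, TGACG in 21.2%, CCAAT in 32%, the gamma-activated site in 6.57%, the progesterone element in 0.327% and AGAACA in 12.4%. The 9 windows read for 7 of the genes, all but HLA-E and NLRC5, held no match to the progesterone element. These matches describe letters and not binding.

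Per kilobase of transcript the classical heavy chains HLA-B and HLA-C had the highest mean levels of the 9 in each group. In vehicle at 6 h the mean level was 245 CPM per kilobase for HLA-B, 137 for HLA-C, 77.7 for B2M, 49.9 for HLA-E, 14.4 for TAP1, 9.16 for PSMB8, 4.84 for HLA-F, 4.01 for TAP2 and 0.583 for NLRC5. The libraries of neighbours in that order did not overlap, except those of HLA-F and TAP2. The order was the same in 5 of the 6 groups. At 10 nM and 18 h HLA-F stood before PSMB8, and B2M overlapped HLA-C, HLA-F overlapped PSMB8 and PSMB8 overlapped TAP2. Of 50-base stretches of the transcript, 21% of HLA-B, 6.71% of HLA-C, 5.76% of HLA-E, 41.7% of HLA-F, 15.2% of TAP1, 35.8% of TAP2 and 28.9% of PSMB8 also occurred in other genes, and none of B2M or NLRC5. Matches were sought on either strand in transcripts of every other gene name, so antisense or other genes at the same place count as other genes. How much of each share comes from such overlaps was not separated. Levels of genes with shared stretches are uncertain to the extent that reads were dropped or assigned elsewhere. The antisense gene PSMB8-AS1 overlaps PSMB8 and TAP1, and HLA-F-AS1 overlaps HLA-F. Neither is in the table, and whether counting used strand is not given in the sources used here.

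**Figure D1:**
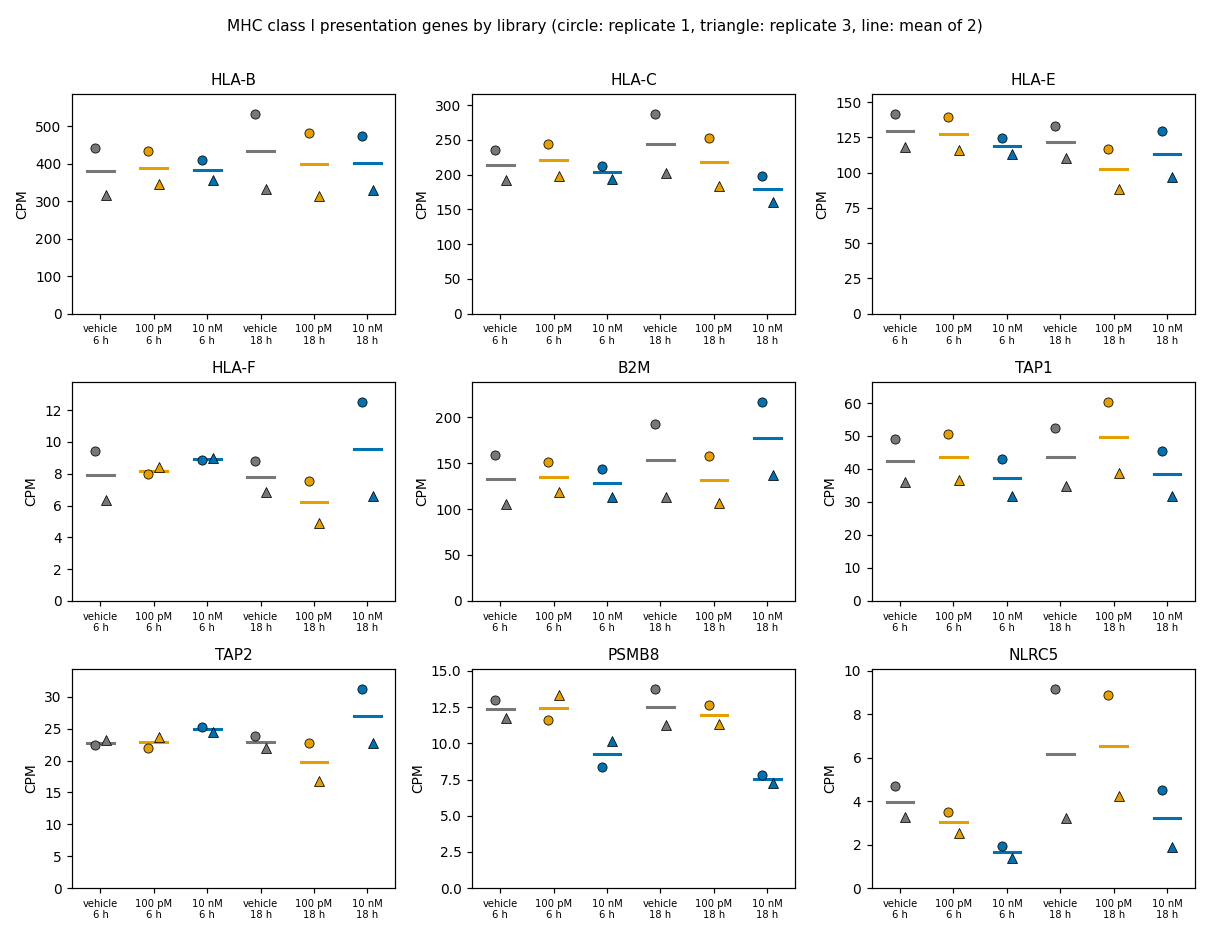
Each panel shows 1 gene, with CPM on the y axis from 0 and the 6 groups on the x axis; circles are replicate 1, triangles replicate 3 and lines the mean of 2. PSMB8 lies between 7.28 and 10.1 CPM in the 4 libraries at 10 nM and between 11.3 and 13.8 CPM in the other 8, while the circles of HLA-B lie above its triangles in each group.

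PSMB8 fell at 10 nM and 18 h, and the other 8 MHC class I genes did not pass the test at either dose or time. At 100 pM 0 of the 9 genes were called at 6 h, where 3.48% of all genes tested were called, and 0 at 18 h, where 10.5% were. At an unadjusted p under 0.05 the counts were 0 and 0, and DESeq2 also called 0 and 0. At 10 nM 0 of 9 were called against vehicle at 6 h (42.0% of all genes) and 1 fell at 18 h (34.1% of all genes called, 15.2% as lower). For 6 h the count was 1 at an unadjusted p under 0.05 and 1 by DESeq2, PSMB8 in both cases. Between the doses 0 of 9 were called at 6 h (37.0% of all genes), with PSMB8 again counted by the unadjusted p and by DESeq2, and 1 was lower at 10 nM at 18 h (26.2%, 11.4% as lower). The median difference of the 9 genes from vehicle was 0.03 at 100 pM and 6 h, -0.07 at 10 nM and 6 h, -0.17 at 100 pM and 18 h and -0.11 at 10 nM and 18 h, beside medians over all genes of -0.02, -0.02, -0.03 and -0.00. Both doses were set against the same vehicle libraries.

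With the block more of the 9 genes were called, as were more of all genes. At 10 nM against vehicle 3 fell and 0 rose at 6 h (TAP1, NLRC5 and PSMB8), beside 30.9% of all genes called as lower and 62.4% in either direction. At 18 h 3 fell (HLA-C, NLRC5 and PSMB8), beside 27.3% of all genes as lower and 56.0% in either direction. These falls are 33.3% of the 9 genes at each time, close to the shares of all genes called as lower. As 0 of the 9 rose at either time, 33.3% is also their share in either direction, below the shares of all genes. At 100 pM 0 were called at 6 h (12.2% of all genes) and HLA-E fell at 18 h (34.1%, 17.0% as lower). Between the doses 3 were lower at 10 nM at 6 h (TAP1, NLRC5 and PSMB8, with 59.3% of all genes called and 29.8% as lower). At 18 h 4 were lower (HLA-C, TAP1, NLRC5 and PSMB8) and 3 higher (HLA-F, B2M and TAP2), with 50.2% of all genes called, 24.7% as lower and 25.4% as higher.

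**Figure D2:**
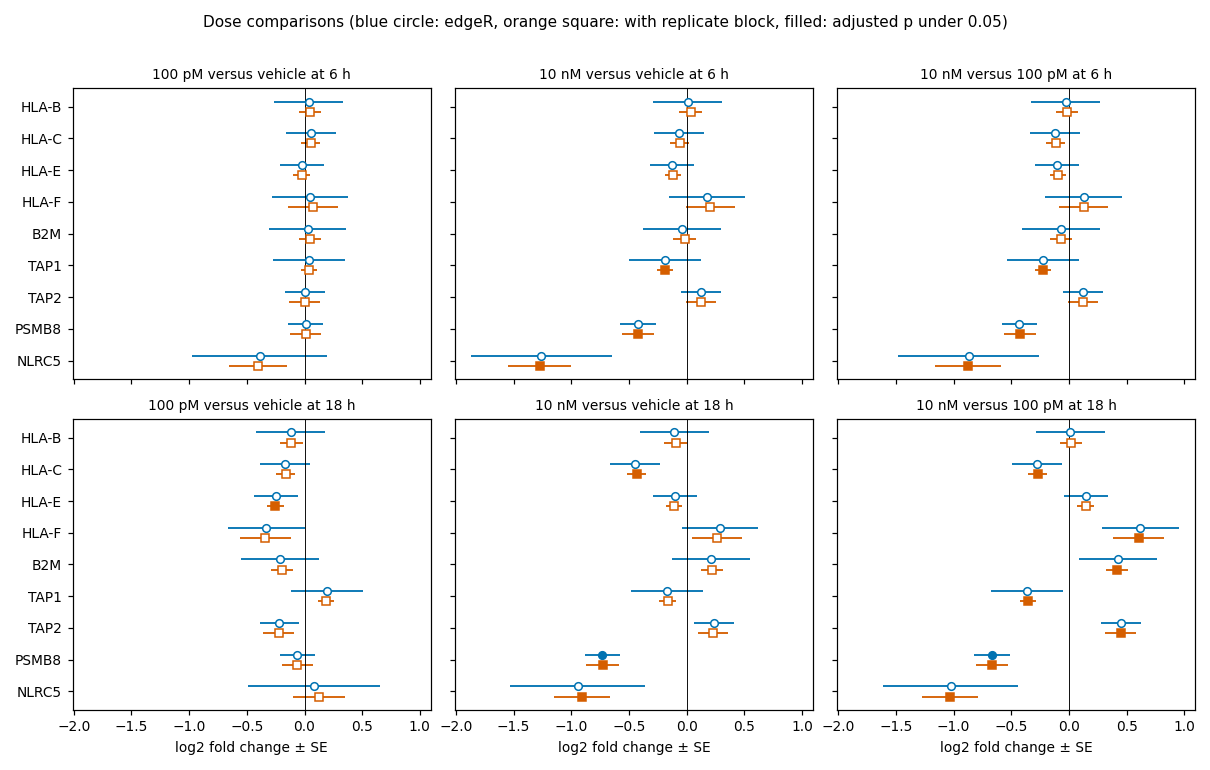
Log2 fold change ± SE on the x axis for the 9 genes in the 6 dose comparisons; blue circles are edgeR, orange squares edgeR with the block, and filled symbols have an adjusted p under 0.05. PSMB8 is the one filled circle, at -0.73 against vehicle and -0.67 against 100 pM, both for 10 nM at 18 h, and the bars of most other genes shrink with the block.

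Peptide generation is the first step, and PSMB8 was lower at 10 nM at both times. At 6 h it read 13 and 11.8 CPM in vehicle (replicate 1, then replicate 3), 11.6 and 13.3 at 100 pM, and 8.36 and 10.1 at 10 nM. At 18 h it read 13.8 and 11.3 CPM in vehicle, 12.6 and 11.3 at 100 pM, and 7.81 and 7.28 at 10 nM. All 4 libraries at 10 nM lay below all 8 others, and the 100 pM libraries overlapped vehicle at each time. Against vehicle PSMB8 fell by 0.73 ± 0.15 on the log2 scale at 18 h (0.603 of the vehicle level, edgeR adjusted p = 0.00656). At 6 h the difference was -0.42 ± 0.15 (adjusted p = 0.0542), and it passed the threshold with the block (adjusted p = 0.0193). Against 100 pM it was -0.67 ± 0.15 at 18 h (adjusted p = 0.0129) and -0.43 ± 0.15 at 6 h (adjusted p = 0.0556, with the block 0.0188). The 100 pM difference from vehicle was 0.01 ± 0.15 at 6 h and -0.06 ± 0.15 at 18 h. The difference between 18 h and 6 h in the 10 nM effect was -0.31 ± 0.22 (adjusted p = 0.419), so the times were not shown to differ. The call at 18 h was lost without replicate 1 of vehicle (-0.58, adjusted p = 0.0525), and that against 100 pM without replicate 1 of 100 pM (-0.59, adjusted p = 0.0685) or replicate 3 of 10 nM (-0.64, adjusted p = 0.0560).

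At 10 nM and 18 h PSMB8 and its inducible partner PSMB9 fell, 9 of the 14 constitutive subunits of the core rose, and the other 5, PSMB5 among them, did not pass the test. PSMB8, PSMB9 and PSMB10 are the inducible catalytic subunits, which replace PSMB5, PSMB6 and PSMB7 to make the immunoproteasome. PSMB9, whose start lies back to back with that of TAP1, was low, with 2.27 CPM in both vehicle libraries at 18 h and 1.35 and 1.18 CPM at 10 nM. It fell by 0.84 ± 0.26 (adjusted p = 0.0337), a call lost when any of the 4 libraries was left out (adjusted p from 0.0845 to 0.136). At 6 h its difference was -0.17 ± 0.25 (adjusted p = 0.632). PSMB10 differed by 0.26 ± 0.20 at 6 h (adjusted p = 0.326) and by -0.45 ± 0.20 at 18 h (adjusted p = 0.116, with the block 0.0230). PSMB5, the standard counterpart of PSMB8, read 49.6 and 42.9 CPM in vehicle and 59.9 and 52.4 CPM at 10 nM at 18 h, a difference of 0.28 ± 0.12 (adjusted p = 0.116, with the block 0.00699).

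Of the 14 constitutive core subunits, which every cell uses for general protein turnover, 5 rose and 0 fell at 10 nM and 6 h, and 9 rose and 0 fell at 18 h. These are 35.7% and 64.3% of the list, beside 22.6% and 19.0% of all genes called as higher. With the block 11 and 14 rose, beside 31.6% and 28.7% of all genes. All 14 had a positive difference at each time, with medians of 0.25 and 0.35, beside -0.02 and -0.00 over all genes. PSMA6, an alpha-ring subunit, went from 126 and 114 CPM in vehicle to 288 and 277 CPM at 10 nM at 18 h, a rise of 1.24 ± 0.09 (adjusted p = 1.68e-05). PSMB2 rose by 0.66 ± 0.08 at 6 h (adjusted p = 0.000244) and by 0.86 ± 0.08 at 18 h (adjusted p = 7.41e-05). PSMA7 rose by 0.51 ± 0.15 at 6 h (adjusted p = 0.0243) and PSMA3 by 0.62 ± 0.12 at 18 h (adjusted p = 0.00423). At 100 pM PSMA6 was called, at 18 h (0.45 ± 0.08, adjusted p = 0.0119), and the other 13 were not. PSME3, which caps the proteasome as the PA28-gamma activator, rose by 0.76 ± 0.08 at 10 nM and 6 h (adjusted p = 0.000101). It was the one gene called at that time on a list of 6 proteasome partners that also holds PSMB9 and PSMB10. That is 16.7% of the list, beside 42.0% of all genes. At 18 h PSME3 was not called, with means of 162 CPM in vehicle and 176 CPM at 10 nM.

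Within a library, PSMB8 reads were 0.130 to 0.191 of PSMB5 reads in the 4 libraries at 10 nM and 0.239 to 0.314 in the other 8. This ratio of counts does not depend on the scaling of the library, and it was lower at 10 nM in every library. It was chosen after the values had been seen and is given with no test.

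**Figure D3:**
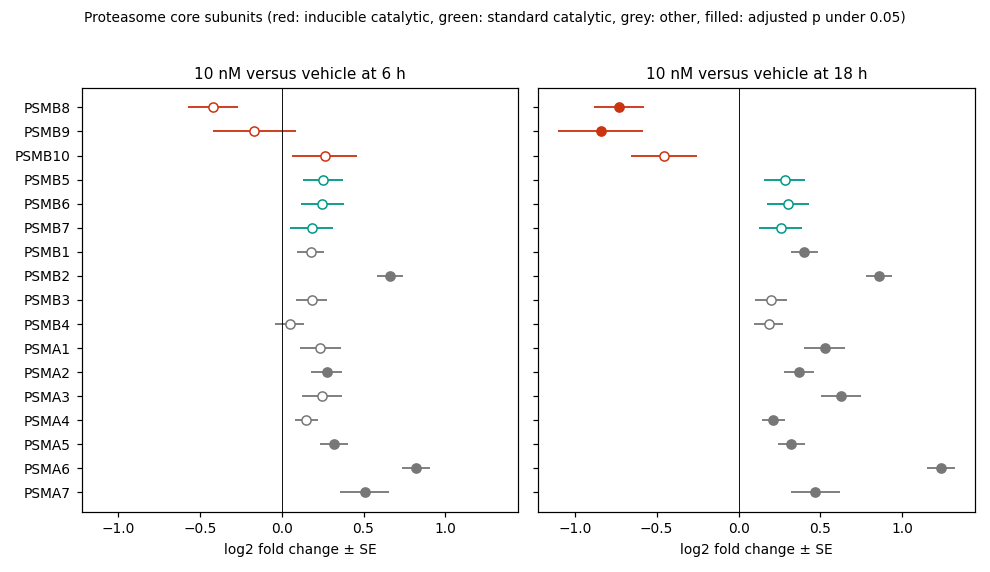
Log2 fold change ± SE at 10 nM against vehicle (x axis) for 17 subunits of the proteasome core at 6 h and 18 h; red marks the inducible catalytic subunits, green their standard counterparts and grey the rest, filled where the adjusted p is under 0.05. At 18 h PSMB8 (-0.73), PSMB9 (-0.84) and PSMB10 (-0.45) lie left of 0 and the 14 constitutive subunits right of it.

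The subunits of the peptide transporter had differences of opposite sign between the doses at 18 h, neither of them called. TAP1 read 48.9 and 36.1 CPM in vehicle, 50.7 and 36.6 at 100 pM and 43.1 and 31.7 at 10 nM at 6 h. The levels at 18 h were 52.3 and 34.7 CPM in vehicle, 60.4 and 38.8 at 100 pM and 45.3 and 31.8 at 10 nM. Replicate 1 was above replicate 3 in each group, and the groups overlapped in every dose comparison. The TAP1 difference of 10 nM from vehicle was -0.19 ± 0.31 at 6 h (adjusted p = 0.668, with the block 0.0359). Between the doses it was -0.22 ± 0.31 at 6 h (adjusted p = 0.609, with the block 0.0170) and -0.36 ± 0.31 at 18 h (adjusted p = 0.435, with the block 0.00122). At 18 h the TAP1 value was -0.01 and -0.65 without replicate 1 and replicate 3 of 100 pM, and -0.64 and -0.15 without those of 10 nM. At 6 h leaving out 1 library moved it to between -0.42 and 0.05 against vehicle and between -0.46 and 0.02 against 100 pM, with each of the 4 libraries moving it by over 1.5 times.

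TAP2 read 22.4 and 23.2 CPM in vehicle, 22 and 23.7 at 100 pM and 25.3 and 24.5 at 10 nM at 6 h. By 18 h it read 23.9 and 22 CPM in vehicle, 22.7 and 16.7 at 100 pM and 31.3 and 22.8 at 10 nM. Both 10 nM libraries were above both 100 pM libraries at each time, by a small margin at 18 h. The difference between the doses at 18 h was 0.45 ± 0.17 (adjusted p = 0.0883, with the block 0.0162). It was 0.69 and 0.25 without replicate 1 and replicate 3 of 100 pM, and 0.21 without replicate 1 of 10 nM. The ratio of TAP1 to TAP2 reads was 1.29 to 1.70 in the 4 libraries at 10 nM and 1.54 to 2.66 in the other 8, so the ranges overlapped.

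Around the transporter, the peptide loading and trimming list holds 9 genes, all tested. At 10 nM against vehicle 0 rose and 2 fell at 6 h, and 1 rose and 1 fell at 18 h. Those calls are 22.2% of the list at each time, beside the 42.0% and 34.1% of all genes called in either direction. ERAP2, an aminopeptidase that trims peptides in the endoplasmic reticulum, fell by 0.68 ± 0.18 at 6 h (adjusted p = 0.0150) and by 0.997 ± 0.183 at 18 h (adjusted p = 0.00315). Its level at 18 h was 8.92 and 7.66 CPM in vehicle, 5.43 and 5.71 at 100 pM and 3.41 and 4.89 at 10 nM, with no overlap between the 3 groups. Without the block, neither the ERAP2 difference of 100 pM from vehicle nor that between the doses was called at 18 h. ERAP1, the partner enzyme, fell by 0.42 ± 0.08 at 6 h (adjusted p = 0.00299). CANX, the chaperone calnexin that holds new heavy chains, rose by 0.33 ± 0.08 at 18 h (adjusted p = 0.0140). TAPBP, or tapasin, which bridges TAP and the heavy chain, differed by -0.42 ± 0.18 at 6 h (adjusted p = 0.0943, with the block 0.00542) and by -0.31 ± 0.18 at 18 h (adjusted p = 0.229, with the block 0.0299).

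HLA-B, the most abundant of the 9, showed no change that passed the test. At 6 h it read 442 and 316 CPM in vehicle, 433 and 345 at 100 pM and 409 and 355 at 10 nM. The 18 h libraries read 531 and 333 CPM in vehicle, 481 and 314 at 100 pM and 472 and 329 at 10 nM. The groups overlapped in every comparison, and replicate 1 was above replicate 3 in each. The differences from vehicle at 10 nM were 0.01 ± 0.30 at 6 h and -0.11 ± 0.30 at 18 h (adjusted p = 0.981 and 0.813), and with the block 0.03 ± 0.10 and -0.10 ± 0.10.

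HLA-C, whose upstream window is close to that of HLA-B, had its lowest levels at 10 nM and 18 h. It read 235 and 192 CPM in vehicle, 245 and 199 at 100 pM and 213 and 194 at 10 nM at 6 h. At 18 h it read 287 and 203 CPM in vehicle, 253 and 183 at 100 pM and 198 and 161 at 10 nM. Both 10 nM libraries at 18 h lay below both vehicle libraries, by a narrow margin. The difference was -0.45 ± 0.22 (adjusted p = 0.151), and it was called with the block (-0.43 ± 0.08, adjusted p = 0.000660). Against 100 pM it was -0.28 ± 0.22 (adjusted p = 0.387, with the block 0.0154). The change of the 10 nM effect from 6 h to 18 h was -0.38 (adjusted p = 0.491, with the block 0.0248). These HLA-C values depended on single libraries in the fit without the block. The difference from vehicle ranged from -0.67 without replicate 3 of vehicle to -0.17 without replicate 1 of vehicle. That from 100 pM ranged from -0.49 without replicate 3 of 100 pM to -0.03 without replicate 1, with -0.44 and -0.16 without replicate 1 and replicate 3 of 10 nM. The change between the times ranged from -0.60 to -0.10 without the same 2 vehicle libraries of 18 h, and was -0.24 without replicate 3 of 10 nM at 18 h or of vehicle at 6 h.

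Within libraries HLA-C reads were 0.420 and 0.489 of HLA-B reads at 10 nM and 18 h, and 0.520 to 0.608 in the other 10 libraries. This ratio was chosen after its values were seen and has no test. The lower value at 10 nM was in replicate 1, and in each group replicate 3 had the higher ratio.

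The non-classical heavy chains had no difference that passed the test without the block. HLA-E, which presents signal peptides of other class I chains to natural killer cells, read 141 and 118 CPM in vehicle, 139 and 116 at 100 pM and 125 and 113 at 10 nM at 6 h. The levels at 18 h were 133 and 110 CPM in vehicle, 117 and 88.5 at 100 pM and 130 and 96.9 at 10 nM. The lowest pair was that of 100 pM at 18 h, with a difference from vehicle of -0.25 ± 0.19 (adjusted p = 0.478, with the block 0.0167). Without replicate 1 and replicate 3 of 100 pM it was -0.46 and -0.06, and without those of vehicle -0.11 and -0.37. At 10 nM the difference at 18 h was -0.10 ± 0.19 (adjusted p = 0.721).

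HLA-F, which reaches the surface partly as an open form without peptide, read 9.46 and 6.35 CPM in vehicle, 7.95 and 8.4 at 100 pM and 8.88 and 8.97 at 10 nM at 6 h. By 18 h it read 8.78 and 6.85 CPM in vehicle, 7.56 and 4.87 at 100 pM and 12.5 and 6.57 at 10 nM. The highest of the 12 values was replicate 1 of 10 nM at 18 h, and replicate 3 of that group lay below both 6 h libraries of the same dose. Between the doses at 18 h the difference was 0.62 ± 0.33 (adjusted p = 0.212, with the block 0.0396), the highest of the 9 in that comparison. Leaving out replicate 1 or replicate 3 of 10 nM gave 0.08 and 0.99, and leaving out those of 100 pM gave 0.97 and 0.34.

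B2M, the light chain that all class I heavy chains share, read 159 and 106 CPM in vehicle, 151 and 119 at 100 pM and 144 and 114 at 10 nM at 6 h. The 18 h libraries read 193 and 114 CPM in vehicle, 158 and 107 at 100 pM and 217 and 137 at 10 nM. Replicate 1 was above replicate 3 in each group, and the groups overlapped in every dose comparison. The difference of 10 nM from vehicle at 18 h was 0.21 ± 0.34 (adjusted p = 0.671, with the block 0.0695). Against 100 pM it was 0.42 ± 0.34 (adjusted p = 0.399, with the block 0.00359). That B2M value was 0.06 and 0.69 without replicate 1 and replicate 3 of 10 nM, and 0.73 and 0.17 without those of 100 pM.

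B2M and HLA-C had differences of opposite sign between the times at 10 nM. B2M reads were 1.09 and 0.852 of HLA-C reads at 10 nM and 18 h, and 0.552 to 0.677 in the other 10 libraries, a ratio also chosen after the values were seen. From 6 h to 18 h at 10 nM the B2M difference was 0.46 ± 0.34 (adjusted p = 0.364, with the block 0.00305; 0.09 and 0.75 without replicate 1 and replicate 3 of 18 h, 0.29 without replicate 3 of 6 h) and the HLA-C difference -0.18 ± 0.22 (adjusted p = 0.594, with the block 0.0741).

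**Figure D4:**
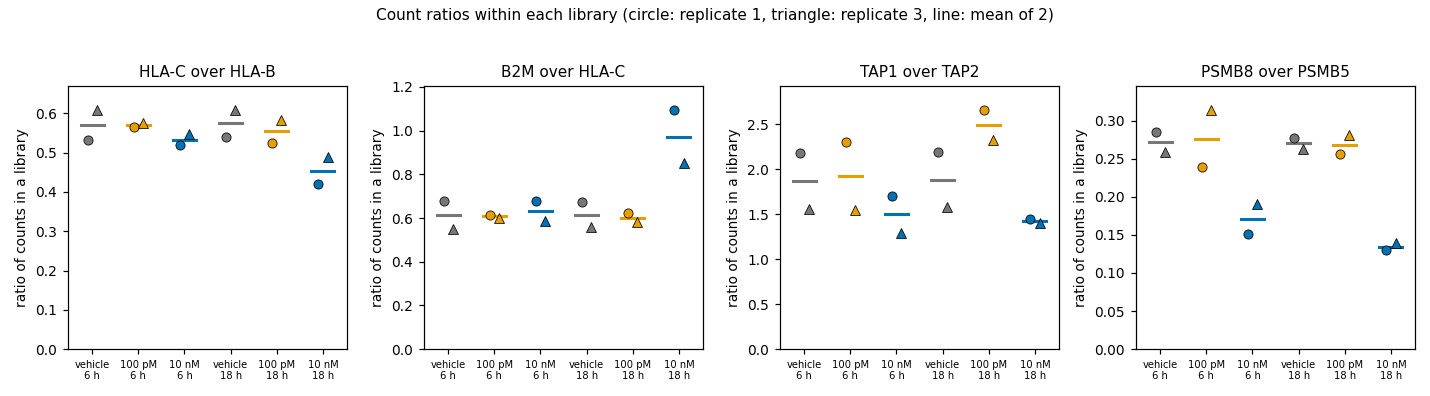
Ratio of the counts of a pair of genes within each library (y axis, from 0) in the 6 groups; circles are replicate 1, triangles replicate 3 and lines the mean of 2. PSMB8 over PSMB5 is lowest in the 4 libraries at 10 nM, HLA-C over HLA-B is lowest (0.420 and 0.489) and B2M over HLA-C highest (1.09 and 0.852) at 10 nM and 18 h, and TAP1 over TAP2 overlaps between doses.

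NLRC5, the transactivator, had the largest differences of the 9 at 10 nM and also the widest spread. It read 4.68 and 3.28 CPM in vehicle, 3.52 and 2.54 at 100 pM and 1.94 and 1.38 at 10 nM at 6 h. At 18 h it read 9.17 and 3.22 CPM in vehicle, 8.88 and 4.22 at 100 pM and 4.53 and 1.91 at 10 nM. At 6 h both 10 nM libraries lay below all 4 others, and at 18 h replicate 1 of 10 nM was above replicate 3 of vehicle and of 100 pM. The difference of 10 nM from vehicle was -1.26 ± 0.61 at 6 h (0.418 of the vehicle level, adjusted p = 0.132, with the block 0.00167). At 18 h it was -0.94 ± 0.58 (adjusted p = 0.253), with the block -0.91 ± 0.24 (adjusted p = 0.00766). Without replicate 1 and replicate 3 of vehicle at 18 h the difference was -0.00 and -1.51, and without those of 10 nM -1.69 and -0.46. Between the doses it was -0.87 ± 0.61 at 6 h (adjusted p = 0.301, with the block 0.0196) and -1.03 ± 0.58 at 18 h (adjusted p = 0.237, with the block 0.00409). At 18 h it was -0.39 without replicate 1 of 100 pM, and -1.78 and -0.55 without replicate 1 and replicate 3 of 10 nM.

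NLRC5 works with RFX5, RFXAP, RFXANK, the NF-Y trimer and factors of the CREB and ATF family at the promoters of class I genes. Of 18 genes on the list of these and other regulators of class I transcription, 16 were tested. At 10 nM against vehicle 0 rose and 4 fell at 6 h, and 1 rose and 0 fell at 18 h. The falls at 6 h are 25% of the list beside 19.4% of all genes called as lower, and the calls in either direction are 25% and 6.25% beside 42.0% and 34.1%. At 6 h NFYC fell by 0.74 ± 0.19 (adjusted p = 0.0133), NFYB by 0.50 ± 0.13 (adjusted p = 0.0149), RFX5 by 0.69 ± 0.22 (adjusted p = 0.0332) and ATF1 by 0.31 ± 0.11 (adjusted p = 0.0491). RFX5 read 82.1 and 64.6 CPM in vehicle, 67 and 55.3 at 100 pM and 52.7 and 38 at 10 nM at 6 h. Its difference at 18 h was -0.62 ± 0.22 (adjusted p = 0.0598, with the block 4.84e-06). With the block RFX5 was also called at 100 pM, at 6 h (-0.26, adjusted p = 0.0167) and at 18 h (-0.31, adjusted p = 0.00243).

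NFYB, which binds CCAAT with NFYA and NFYC, fell at 10 nM and 6 h and rose at 100 pM and 18 h. The levels at 18 h were 58.4 and 70.9 CPM in vehicle, 114 and 122 at 100 pM and 67.8 and 83.9 at 10 nM. It rose by 0.87 ± 0.13 at 100 pM (adjusted p = 0.00438) and was lower at 10 nM than at 100 pM (-0.64 ± 0.13, adjusted p = 0.00728). NFYA rose by 0.41 ± 0.08 at 10 nM and 18 h (adjusted p = 0.00443). IRF1, an interferon-induced factor that binds class I promoters, read 10.8 and 3.64 CPM in vehicle and 18 and 9.9 CPM at 10 nM at 6 h. Its difference was 0.96 ± 0.93 (adjusted p = 0.445, with the block 0.0121). CIITA, the class II counterpart of NLRC5, had 0 to 9 reads per library and was not tested.

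Of 14 genes for interferon receptors and JAK-STAT signalling, all tested, 4 rose and 3 fell at 10 nM and 6 h, and 3 rose and 3 fell at 18 h. The shares called, 50% and 42.9%, stand beside 42.0% and 34.1% of all genes. The 3 kinases TYK2, JAK1 and JAK2 rose at both times. TYK2 went from 88 and 84.1 CPM in vehicle to 159 and 143 CPM at 10 nM at 18 h, a rise of 0.81 ± 0.09 (adjusted p = 0.000158). JAK2 rose by 1.99 ± 0.24 (adjusted p = 0.000348) and JAK1 by 0.68 ± 0.10 (adjusted p = 0.000908) at 18 h. IRF9, a DNA-binding factor of the type I interferon response, fell by 0.89 ± 0.23 at 6 h (adjusted p = 0.0130) and by 1.02 ± 0.23 at 18 h (adjusted p = 0.00865). SOCS3, a feedback inhibitor, fell by 1.73 ± 0.40 at 6 h (adjusted p = 0.00810). SOCS1, another such inhibitor, went the other way, with means of 0.994 CPM in vehicle and 6.72 CPM at 10 nM at 6 h. The list thus held called genes in both directions, with medians of -0.05 at 6 h and 0.18 at 18 h.

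Other molecules on the cell surface are also read by immune cells. Of 15 class I like molecules and ligands of natural killer receptors, 13 were tested. At 10 nM against vehicle 0 rose and 3 fell at 6 h, and 1 rose and 2 fell at 18 h. The falls are 23.1% and 15.4% of the list, near the 19.4% and 15.2% of all genes called as lower. The calls in either direction are 23.1% at each time, below the 42.0% and 34.1% of all genes. MICB, a stress-induced ligand of the NKG2D receptor, read 43.9 and 32.4 CPM in vehicle, 30.2 and 26 at 100 pM and 12.6 and 11.3 at 10 nM at 6 h. It fell by 1.67 ± 0.19 at 6 h (adjusted p = 0.000175) and by 0.90 ± 0.18 at 18 h (adjusted p = 0.00544). MR1, which presents metabolites to MAIT cells, fell by 1.06 ± 0.13 at 6 h (adjusted p = 0.000281). PROCR, a class I like receptor for protein C, fell by 0.80 ± 0.17 at 6 h (adjusted p = 0.00494) and by 2.16 ± 0.18 at 18 h (adjusted p = 4.04e-05). AZGP1, a secreted class I like glycoprotein, read 7.89 and 24.4 CPM in vehicle, 330 and 551 at 100 pM and 96.5 and 181 at 10 nM at 18 h. It rose by 4.77 ± 0.78 at 100 pM (adjusted p = 0.00648) and by 3.10 ± 0.72 at 10 nM (adjusted p = 0.0107). Both 100 pM libraries of AZGP1 lay above both 10 nM libraries at 18 h, but its difference between the doses was not called there.

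Of 14 genes of MHC class II presentation, which serves helper T cells, 9 were tested, with 2 rising and 0 falling at 10 nM and 6 h and 2 rising and 2 falling at 18 h. These calls are 22.2% and 44.4% of the list, beside 42.0% and 34.1% of all genes. HLA-DMA, which helps load class II molecules, rose by 1.13 ± 0.38 at 6 h (adjusted p = 0.0394). HLA-DRB1 fell by 0.89 ± 0.25 at 18 h (adjusted p = 0.0257). The remaining calls, named here after their values were seen, were rises of HLA-DMB at both times and of HLA-DOB at 18 h, and a fall of HLA-DQB1 at 18 h. HLA-DMB did not pass 1.11 CPM in any library. HLA-DOB was also low, with means of 0.0140 CPM in vehicle and 0.637 CPM at 10 nM at 18 h. Of 12 genes that silence or turn over class I, 10 were tested. At 10 nM against vehicle 3 rose and 1 fell at 6 h (40%), and 1 rose at 18 h (10%). All genes called in either direction were 42.0% and 34.1%. SYVN1, a ligase of endoplasmic reticulum degradation, rose by 1.04 ± 0.13 at 6 h (adjusted p = 0.000286), and TMEM127 by 0.60 ± 0.08 (adjusted p = 0.000389). Neither was called at 18 h, with means in vehicle and at 10 nM of 112 and 140 CPM for SYVN1 and 101 and 93.5 CPM for TMEM127. EZH2, a methyltransferase of Polycomb, rose by 0.96 ± 0.25 at 100 pM and 18 h (adjusted p = 0.0431). It was the 1 gene of the list called there, 10% beside 10.5% of all genes.

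Between 6 h and 18 h none of the 9 genes was called at any dose. In vehicle edgeR called 0 of all genes (0%), with 178 genes at an unadjusted p under 0.05, none of them among the 9, and DESeq2 called 0. At 100 pM 1.18% of all genes were called and at 10 nM 24.5%, and for the 9 genes the counts at an unadjusted p under 0.05 and by DESeq2 were 0 at each dose. With the block NLRC5 rose over time at 100 pM (1.06 ± 0.24, adjusted p = 0.00975) and at 10 nM (0.90 ± 0.28, adjusted p = 0.0202). HLA-E fell by 0.32 ± 0.07 at 100 pM (adjusted p = 0.00785) and B2M rose by 0.43 ± 0.10 at 10 nM (adjusted p = 0.00305). Without the block and without 1 library, the NLRC5 change ran from 0.47 to 1.55 at 100 pM and from 0.20 to 1.44 at 10 nM, in both cases lowest without replicate 1 of 18 h and highest without replicate 3 of 18 h. The HLA-E change ran from -0.53 to -0.13, without replicate 1 and replicate 3 of 18 h. With the block 0.0288% of all genes were called over time in vehicle, none of them among the 9, 22.2% at 100 pM and 49.2% at 10 nM. The effect of 10 nM differed between the times for 0 of the 9 genes (10.5% of all genes) and that of 100 pM for 0 (0.0144%), with 0 by DESeq2 and at an unadjusted p under 0.05 in both. With the block the 10 nM effect differed for HLA-C (35.1% of all genes called) and the 100 pM effect for none (5.60%).

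For HLA-B, HLA-E, B2M and TAP1 the difference between the replicate numbers was larger than any dose difference. In the fit with the block, replicate 3 minus replicate 1 was -0.92 ± 0.15 for NLRC5, -0.54 ± 0.06 for B2M, -0.52 ± 0.04 for TAP1, -0.47 ± 0.06 for HLA-B, -0.40 ± 0.13 for HLA-F, -0.33 ± 0.05 for HLA-C and -0.29 ± 0.04 for HLA-E. For TAP2 it was -0.15 ± 0.08 and for PSMB8 -0.04 ± 0.08, beside a median of 0.00 over all genes. Replicate 1 was higher in 6 of 6 groups for HLA-B, HLA-C, HLA-E, B2M, TAP1 and NLRC5, and in 4 of 6 for HLA-F, TAP2 and PSMB8. This comparison was chosen after the values were seen and is a description with no test. The mitochondrial share differed between the numbers in the same way in each group, and its part in these differences was not tested.

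**Figure D5:**
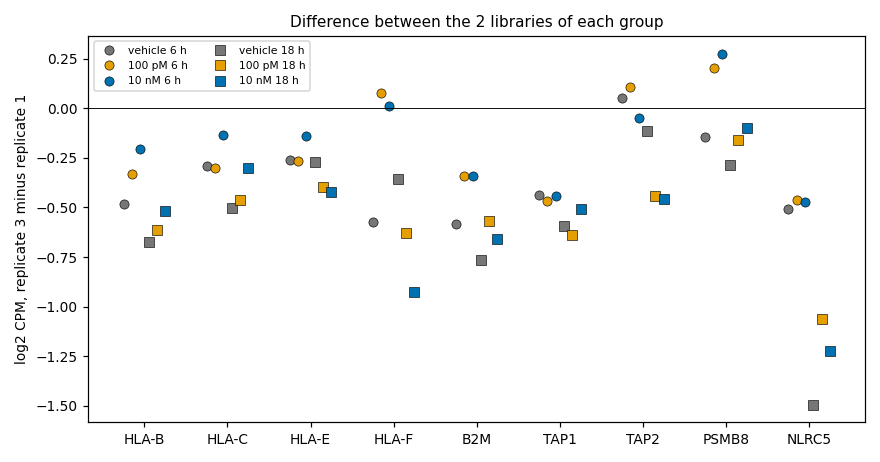
Replicate 3 minus replicate 1 in log2 CPM (y axis) for each gene, with 1 point per group; colours give the dose, circles 6 h and squares 18 h. All 6 points lie below 0 for HLA-B, HLA-C, HLA-E, B2M, TAP1 and NLRC5, and the points of HLA-F, TAP2 and PSMB8 lie on both sides.

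Across the 12 libraries some pairs of the class I genes varied together and others did not. Pearson's r over the 36 pairs, which includes the shared difference between replicate numbers, ran from -0.41 for TAP2 with PSMB8 to 0.90 for HLA-B with B2M, with 4 pairs below 0. After the mean of each replicate number was taken out 14 pairs were below 0, the lowest -0.59 for TAP1 with TAP2. Among the higher pairs r was 0.90 for HLA-B with B2M, 0.83 for HLA-B with HLA-C, 0.88 for HLA-F with TAP2 and 0.81 for TAP1 with NLRC5. With the mean of each number taken out, r was 0.60 for HLA-B with B2M, 0.53 for HLA-B with HLA-C, 0.87 for HLA-F with TAP2, 0.84 for TAP1 with NLRC5 and 0.88 for HLA-C with PSMB8. B2M with HLA-C was 0.55 before and -0.25 after. Among 11011 candidates the genes most like the mean of the 9 over the 12 libraries were DYNC1H1 (r = 0.96), PLBD2 (0.94), HMBOX1 (0.93), ZNF292 (0.93) and KMT2D (0.92). Most like NLRC5 were SP100 (0.94), ANKRD30A (0.94), BBC3 (0.94), RAB24 (0.93) and MYH14 (0.93). The libraries share dose, time and replicate number, so these values are a description without a p.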

How the data were processed

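Total RNA of 12 libraries was sequenced from Nextera libraries, per the labels. The authors deposited raw counts of reads per gene symbol, aligned to hg19 with STAR, and the submitters' processing notes also name DESeq2 with no role. Versions, counter, annotation and strand setting are unknown (not given in the sources used here). It held 12 columns, all used, and 2709 of 20114 symbols had no count.

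The counts were analysed in R 4.3.3 with edgeR 4.0.16 and limma 3.58.1, and with DESeq2 1.42.0 as an alternative. After filterByExpr (13872 genes left) and TMM scaling, the robust quasi-likelihood F test of edgeR was run on 1 fit of the 6 groups (6 residual degrees of freedom), with Benjamini-Hochberg adjustment over all genes tested in each of 11 comparisons. Depth, 34204970 to 41373890 counts, left the spread between libraries as the main limit (chi-square per degree of freedom 44.2 to 66.6 within groups). What the replicate numbers share is not in the labels, but deviations from group means correlated between same-numbered libraries (r 0.464 to 0.677, median 0.558, over 15 pairs of groups), so block values (5 residual degrees of freedom, biological coefficient of variation 0.163 to 0.0678) are given where a call changed. Alternatives were RLE and upper quartile scaling, no filter, DESeq2, the block, each time alone and leaving out each library. The test was also run on simulated counts, and the outcome of that check is not given here.

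The genes and the lists were chosen with earlier results of these data known. All 9 genes are reported. Of 8 pathway lists, up to 4 called members per comparison were eligible, by smallest adjusted p and with a mean log2 CPM of 2 or more, and IRF1, PSMB9, TAPBP, RFX5 and CIITA were always reported; a further gene the rule names is not reported here. PSMB10, PSMB5 and SOCS1 were added after their values were seen. Marker lists covered luminal, immune, fibroblast, endothelial and basal cells. Likeness was Pearson's r over the libraries. Promoter windows came from RefSeq on GRCh38.p14 and transcript lengths from the longest coding transcript of each gene, which need not match the annotation behind the counts.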

Additional observations from a re-analysis of the deposited data

How the results depend on the processing

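Libraries with the same replicate number deviated together, and a fit with the number as a replicate block moved 10 of the 11 counts of called genes by more than 1.5 times. With the replicate block 1696 genes were called for 100 pM against vehicle at 6 h (483 without), 8231 for 10 nM against 100 pM at 6 h (5127), 4728 for 100 pM against vehicle at 18 h (1450), 7767 for 10 nM against vehicle at 18 h (4734) and 6958 for 10 nM against 100 pM at 18 h (3635). Over time it called 4 genes in vehicle (0), 3076 at 100 pM (164) and 6819 at 10 nM (3393), and for the difference between times 777 at 100 pM (2) and 4863 at 10 nM (1462). Among the 9 genes the block changed the calls given beside the results and no other. DESeq2 called 839, 2203, 832, 107 and 2295 genes for 100 pM at 6 h, 100 pM at 18 h, 100 pM over time, and the differences between times at 100 pM and 10 nM, where edgeR called 483, 1450, 164, 2 and 1462. With the libraries of 18 h alone 655 genes were called for 100 pM. The count of 2 for the difference at 100 pM was 1 with RLE scaling, 5 with upper quartile scaling and 5 with no filter on low counts.

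PSMB8 kept its calls at 18 h under each change of scaling, filter, tool and block, and at 6 h it passed the threshold against vehicle with DESeq2 (adjusted p = 0.0406) and upper quartile scaling (-0.55, adjusted p = 0.0170), and against 100 pM with DESeq2 (adjusted p = 0.0380) and upper quartile scaling (adjusted p = 0.0226). NLRC5 passed it for 10 nM at 6 h when the 6 h libraries were fitted alone (-1.27, adjusted p = 0.0256). Upper quartile scaling moved the median of all genes by -0.13 for 10 nM against vehicle at 6 h, and the share of calls that were higher went from 53.8% to 41.6%, and from 54.5% to 43.9% against 100 pM. It turned values near 0 below it for 100 pM at 6 h (B2M -0.0024, TAP2 -0.026, PSMB8 -0.019) and for 10 nM at 6 h (HLA-B -0.11, TAP2 -0.0016). HLA-B between the doses at 18 h turned from 0.01 to -0.0060 with RLE scaling, -0.023 with upper quartile scaling, -0.016 with no filter, -0.0059 with DESeq2 and -0.0073 with the 18 h libraries alone. The cause of these changes was not tested.

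When 1 library was left out, the spread of the lone library left in its group was taken from the other groups. The counts of called genes ranged from 221 to 308 and from 512 to 845 for 100 pM at 6 h and 18 h, 3281 to 4242 and 2286 to 2900 for 10 nM against 100 pM at 6 h and 18 h, 9 to 26 and 1817 to 2282 over time at 100 pM and 10 nM, and 0 to 0 and 467 to 860 for the differences between times. TAP2 between the doses at 18 h ranged from 0.21 to 0.69 and was called without replicate 1 of 100 pM or replicate 3 of 10 nM (adjusted p = 0.0357 and 0.0298). Differences of uncalled genes changed sign when a library was left out, with these lowest and highest log2 values. For 100 pM versus vehicle at 6 h they were HLA-B -0.19 to 0.30, HLA-C -0.098 to 0.21, HLA-E -0.16 to 0.11, HLA-F -0.21 to 0.36, B2M -0.24 to 0.35, TAP1 -0.21 to 0.27, TAP2 -0.072 to 0.061, PSMB8 -0.12 to 0.11. For 10 nM versus vehicle at 6 h they were HLA-B -0.21 to 0.27, HLA-C -0.21 to 0.083, HLA-E -0.25 to 0.011, HLA-F -0.084 to 0.49, B2M -0.30 to 0.28, TAP1 -0.42 to 0.050. For 10 nM versus 100 pM at 6 h they were HLA-B -0.16 to 0.14, HLA-C -0.25 to 0.026, HLA-E -0.21 to 0.030, B2M -0.25 to 0.11, TAP1 -0.46 to 0.023. For 100 pM versus vehicle at 18 h they were HLA-B -0.46 to 0.26, HLA-C -0.42 to 0.11, B2M -0.54 to 0.22, TAP1 -0.16 to 0.52, NLRC5 -0.55 to 1.02, PSMB8 -0.20 to 0.089. For 10 nM versus vehicle at 18 h they were HLA-B -0.41 to 0.27, HLA-E -0.33 to 0.084, HLA-F -0.25 to 0.67, B2M -0.16 to 0.64, TAP1 -0.45 to 0.15, TAP2 -0.011 to 0.43. For 10 nM versus 100 pM at 18 h they were HLA-B -0.27 to 0.35, HLA-E -0.081 to 0.36. With 2 libraries a group, the SE of a dose difference ran from 0.15 for PSMB8 to 0.61 for NLRC5.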
